A study of Mus musculus with 12 samples.

Results

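CBA tumours were compared with N2.1 tumours, taking the 3 tumours of each name (A, B and C) out of the 12 tumours sequenced, which also included 3 Balb/c-2 and 3 F0 tumours. The tumours were grouped by their labels. Every gene row of the expression table was described (34436 genes), and the 17491 genes with a normalised read count of at least 10 in at least 3 of the 12 tumours were tested. All tumours descended from YUMM1.7, a mouse melanoma line, and polyadenylated RNA was taken from whole tumour biopsies. Per the labels, F0 tumours grew from cells injected into syngeneic mice. Cells of the dissociated tumours seeded each following passage, first F1 and F2, then N2.1 to N2.3, and then Balb-c1, Balb/c-2 and CBA as the labels list them. CBA and Balb/c are names of inbred strains, but the host strain, sex and age of each tumour are not given in the labels. Whether tumours A to C of a passage came from separate mice is not stated, so the p values measure the spread between these tumours.

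YUMM lines carry an activated Braf and lack Cdkn2a, which makes them a model of melanoma driven by the MAPK pathway. A tumour passed from mouse to mouse holds the transplanted cells along with blood vessels, fibroblasts, fat and immune cells of its current host. In RNA of a whole tumour, fewer cells of a type and less RNA per cell cannot be told apart. Cells moved between strains with different tissue antigens are normally rejected by T cells, so the immune and antigen presentation genes are followed below beside the genes of the tumour cells.

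Each CBA tumour gave 34721735 to 49869848 reads and each N2.1 tumour 47667853 to 52355808 reads, counted over genes and repeats together. The 3 CBA libraries shared a flow cell with Balb/c-2 B and C, and the 3 N2.1 libraries shared the other with Balb/c-2 A and F0 A to C, so no flow cell held both groups. Called genes are therefore given with a further adjusted p, named the flow-cell adjusted p, from a fit with the flow cell as a covariate. That term was set by the difference between Balb/c-2 A and Balb/c-2 B and C alone. CBA B stood apart from the other CBA tumours. Its log2 values correlated at 0.944 with CBA A and 0.941 with CBA C, while CBA A and C correlated at 0.981. It held 19392 genes with a read, against 23236 in CBA A and 21693 in CBA C. The Y-linked helicase gene Ddx3y stood at 3907, 272 and 3252 in CBA tumours A, B and C, against 2115, 2955 and 2458 in N2.1 tumours, and Xist, the RNA that silences 1 X chromosome in female cells, at 18.9, 1051 and 13.7 in CBA, against 1.89, 5.09 and 0 in N2.1. CBA B was thus low in Ddx3y and high in Xist beside all 5 other tumours, and values without it are given for the lists and for many of the genes below.

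The label of melanoma was checked against pigment cell markers. Tyr (tyrosinase) and Mlana had no read in any of the 6 tumours, and Dct did not pass 1.80 in any. Mitf, the master regulator of the melanocyte lineage, stood at 927, 325 and 691 in CBA, against 821, 1289.6 and 893 in N2.1, and Pax3, an upstream regulator, at 1607, 582 and 1519 in CBA, against 775, 1037 and 848 in N2.1. The pigment enzymes of a differentiated melanocyte were at or near 0 in both groups while Mitf and Pax3 were expressed in all 6 tumours. The part of host cells in the Mitf and Pax3 reads of these whole biopsies was not tested. Neither Mitf (adjusted p = 0.38) nor Pax3 (adjusted p = 0.676) was called. Sox10, another factor of melanocytes, was low in all N2.1 tumours and in CBA C, with values given below.

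With limma over all 17491 genes, 1250 (7.15%) were called at an adjusted p under 0.05. Of these, 365 (2.09%) were higher and 885 (5.06%) lower in CBA tumours. Values of the groups did not overlap for 33.6% of genes, of which those higher in all CBA tumours made up 13.1% of the genes tested and those lower 20.6%. The median log2 change of all genes tested was −0.079, with 44.8% of genes above 0. An unadjusted p under 0.05 in the limma fit was reached by 3777 of the 17491 genes, in either direction. Counts for the gene lists below are to be read beside these shares. The split depended on the scaling: after quantile normalization the median became 0.074 and the calls were 551 higher and 670 lower. With the flow cell as a covariate, 118 genes were called (0.675%, with 0.36% higher and 0.314% lower), of which 98 were among the 1250. On reads recovered from the values, edgeR called 5.75% (2.26% higher and 3.49% lower) and DESeq2 13.3% (5.07% higher and 8.28% lower). A limma fit of the 6 tumours alone called 10.3% (2.69% higher and 7.59% lower). Leaving out CBA B left 1122 calls (6.41%, with 2.07% higher and 4.35% lower), and leaving out any 1 of the 6 tumours gave 545 to 1122.

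**Figure D1:**
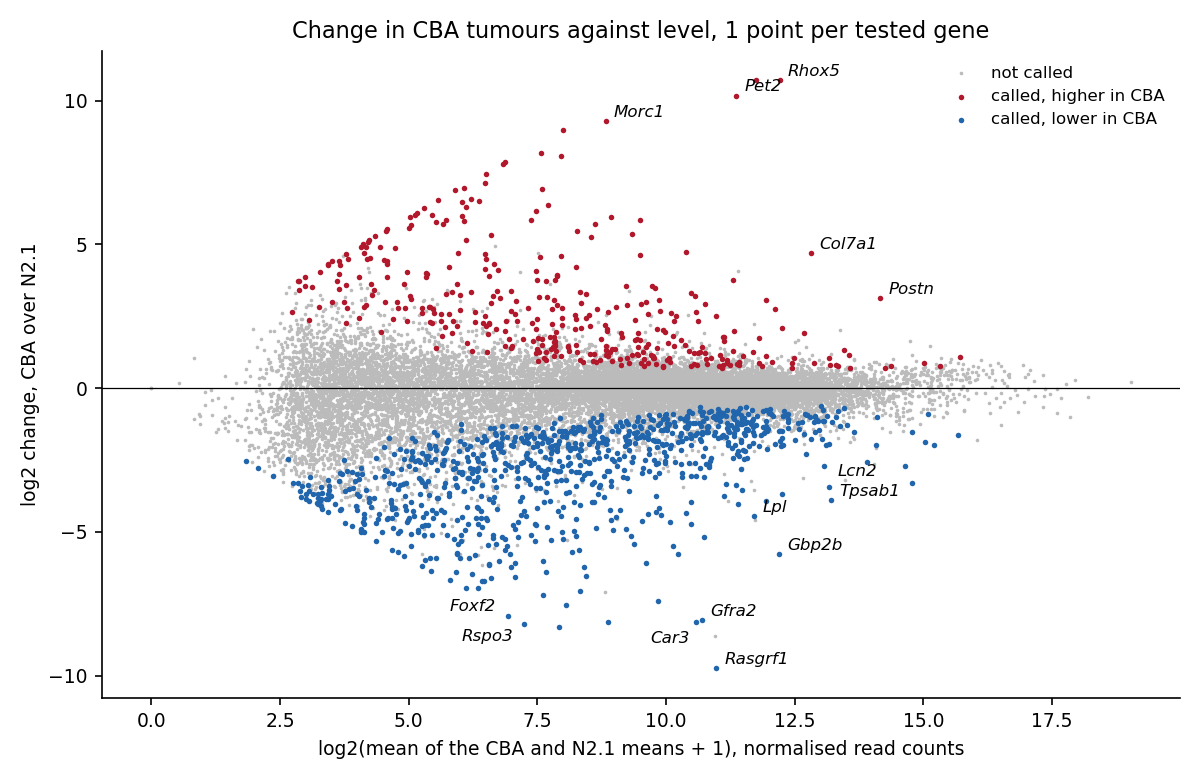
Log2 change of CBA over N2.1 tumours (vertical) against the log2 of the mean normalised read count of both groups plus 1 (horizontal), 1 point for each of the 17491 genes tested. Red points are the 365 genes called higher and blue points the 885 called lower in CBA, and the germline genes Rhox5 and Pet2 and the Ras exchange factor Rasgrf1 lie at the outer edges.

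The largest rises were in genes of the germline, several of them on chromosome X. Such cancer-testis genes are normally silent outside testis or ovary and placenta, and DNA methylation often keeps them off. Rhox5, an X-linked homeobox gene of the reproductive tract, had 4668, 18827 and 4894 normalised read counts in CBA tumours A, B and C, against 0, 6.11 and 11.7 in N2.1 tumours (log2 change 10.71 ± 0.91 SE, adjusted p = 4.52e-05, flow-cell adjusted p = 0.0186). No CBA value came near an N2.1 value, and Balb/c-2 A, which shared the N2.1 flow cell, had 10017. Pet2, at chrX:89403848-89409689 on the mm10 build, had 6013, 3451 and 6268 in CBA, against 0, 9.17 and 7.22 in N2.1 (10.18 ± 0.71, adjusted p = 2.05e-05, flow-cell adjusted p = 0.018). Morc1, an ATPase that helps silence transposons in male germ cells, had 993, 682 and 1039.7 in CBA, against 1.89, 0 and 0 in N2.1 (9.29 ± 0.51, adjusted p = 5.35e-06, flow-cell adjusted p = 0.00614). 3830417A13Rik, a gene with a clone name that the rule for named genes leaves out, had a log2 change of 10.71, named here after its value was seen. Rhox5, Pet2 and Morc1 were thus abundant in every CBA tumour and did not pass 11.7 in any N2.1 tumour.

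The MAGE-A genes, which code for testis-restricted antigens that can be seen by T cells, were likewise present in CBA tumours and nearly absent from N2.1. Magea8 had 497, 462 and 564 in CBA and no read in N2.1. That made it at least 531-fold higher in CBA, set against a floor of 3 reads over the N2.1 group (adjusted p = 3.37e-05, flow-cell adjusted p = 0.0264). Magea3 had 671, 134 and 675 in CBA, against 0, 2.04 and 0 in N2.1, a ratio of 799 with a counting interval of 221 to 6602 (95%, counting error only; adjusted p = 8.33e-05, flow-cell adjusted p = 0.02). Both are members of a family of close copies, so the authors' counting could have shared reads between them. Of the 36 germline and cancer-testis genes listed, 18 passed the filter, of which 3 rose (Rhox5, Magea8 and Magea3) and 1 fell (against 2.09% of all genes tested that rose and 5.06% that fell), with a median log2 change of 0.411 against −0.079 over all genes tested. The member that fell was Hormad1, a protein of the meiotic chromosome axis, at 1.8, 0 and 0 in CBA, against 269, 455 and 715 in N2.1 (adjusted p = 0.000163, flow-cell adjusted p = 0.0758). Ddx4 and Brdt, which mark germ cells and spermatocytes, were not called, at 26.2, 15.4 and 22.4 and 276, 209 and 275 in CBA, against 19.9, 6.11 and 10.8 and 173, 177 and 193 in N2.1.

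**Figure D2:**
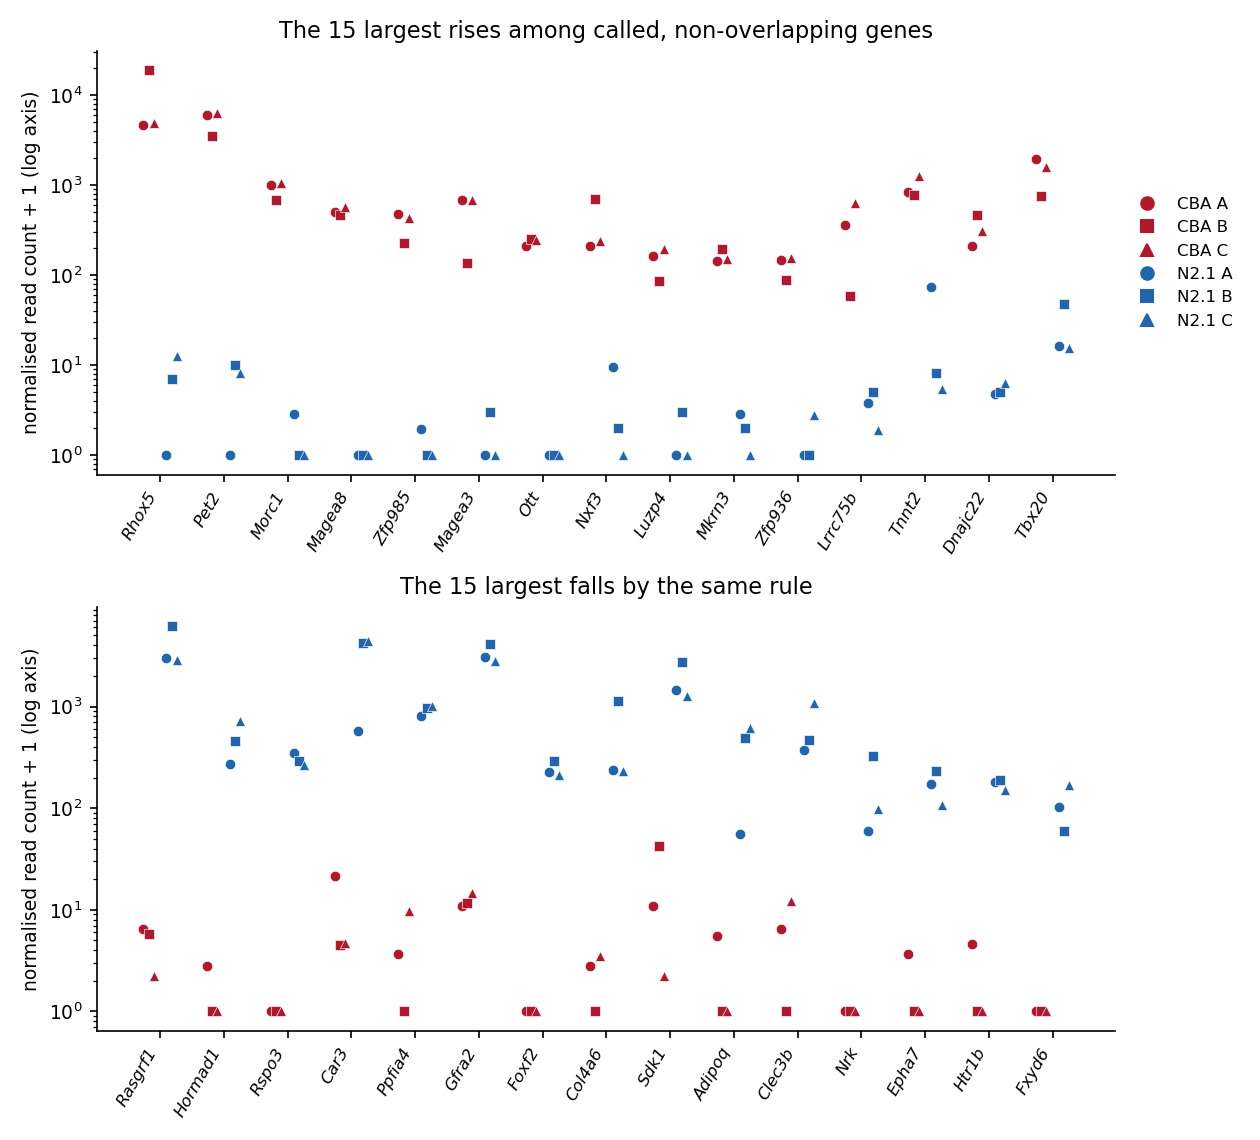
Normalised read count plus 1 on a log axis for the 15 genes with the largest rises (top) and the 15 with the largest falls (bottom) among called genes whose groups do not overlap and whose higher group averages at least 100. Each gene has its 3 CBA tumours in red on the left and its 3 N2.1 tumours in blue on the right, and in 14 of the 30 genes the lower group holds 3 reads or fewer in all.

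Neighbouring genes on chromosome X rose together. A stretch of 14 neighbouring tested genes, from Lrch2 to Gm15091 (chrX:147470375-149984982 on mm10), was called higher in CBA throughout, with log2 changes of 4.42 to 7.87 and adjusted p values up to 0.00754. The stretch was picked out after the values were seen. Its best known members are Ott, a gene transcribed in ovary and testis, and Luzp4, whose human counterpart exports messenger RNA and is a cancer-testis antigen. Of the others, 11 carry only predicted-gene symbols. The promoters of 4 members are shown because they are nearly the same sequence. They are the 250 bases before each start from RefSeq (GRCm38.p6, the same build as mm10), read 5′ to 3′ on the plus strand at chrX:147992743-147992992, chrX:148882326-148882575, chrX:149097702-149097951 and chrX:149941405-149941654. Capitals mark the 10 positions at which the 4 differ.
Gm15080: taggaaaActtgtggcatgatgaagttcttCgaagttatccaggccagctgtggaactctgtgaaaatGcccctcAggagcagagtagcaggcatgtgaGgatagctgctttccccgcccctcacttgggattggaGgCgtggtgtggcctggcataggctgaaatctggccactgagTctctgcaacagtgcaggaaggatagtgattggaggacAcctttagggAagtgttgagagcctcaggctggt
Luzp4: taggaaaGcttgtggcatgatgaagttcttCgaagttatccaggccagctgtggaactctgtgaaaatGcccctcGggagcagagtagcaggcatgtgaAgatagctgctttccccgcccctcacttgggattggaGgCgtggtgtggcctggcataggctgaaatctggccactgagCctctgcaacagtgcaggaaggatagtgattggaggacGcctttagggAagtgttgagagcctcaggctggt
Ott: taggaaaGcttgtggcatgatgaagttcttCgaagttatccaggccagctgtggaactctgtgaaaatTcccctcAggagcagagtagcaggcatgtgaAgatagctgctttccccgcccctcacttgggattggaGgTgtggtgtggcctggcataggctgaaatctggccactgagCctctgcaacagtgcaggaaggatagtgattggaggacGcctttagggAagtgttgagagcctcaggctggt
Gm15091: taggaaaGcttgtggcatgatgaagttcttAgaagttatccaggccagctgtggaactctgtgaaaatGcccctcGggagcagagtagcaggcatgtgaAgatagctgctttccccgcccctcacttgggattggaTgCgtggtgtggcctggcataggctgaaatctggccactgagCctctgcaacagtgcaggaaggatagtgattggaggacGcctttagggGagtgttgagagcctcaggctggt
The other 240 positions were shared by all 4, and any 2 of the promoters were 96.8% to 98.8% identical. These bases lie before each start, and the transcripts themselves were not compared. Whether reads of these genes were shared between copies by the authors' counting was not tested, so single members are uncertain.

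Summed over the 14 genes, CBA tumours A, B and C had normalised read counts of 2511.6, 2191.5 and 3244.7, against 53, 16.3 and 9.9 in N2.1 tumours. The groups did not overlap for any of the 14, and 9 had no read in any N2.1 tumour. Ott, at chrX:149074282-149138152, had 207, 249 and 244 in CBA and no read in N2.1. It was at least 242-fold higher against the floor of 3 reads (adjusted p = 8.84e-06, flow-cell adjusted p = 0.00657). Lrch2, a leucine-rich repeat gene at the start of the stretch, had 751, 557 and 981 in CBA, against 42.6, 6.11 and 8.13 in N2.1 (5.72 ± 0.64, adjusted p = 0.000312, flow-cell adjusted p = 0.131). All 14 were also called by edgeR and without CBA B, and 6 with the flow cell as a covariate. Balb/c-2 A, on the N2.1 flow cell, had a sum of 1551.6, within the same order of size as the 2079.2 and 3686.6 of Balb/c-2 B and C. The F0 tumours had 708.2, 711.9 and 852.8, most of it from Lrch2, at 604, 403 and 739. Over chromosome X as a whole, 38 of 592 tested genes were called higher (6.42%) and 32 lower (5.41%). Of all genes tested, 2.09% were called higher and 5.06% lower, and the 38 include the 14 of the stretch. The median log2 change was 0.011 over the 378 genes of chromosome X with a mean of at least 100 in both groups.

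**Figure D3:**
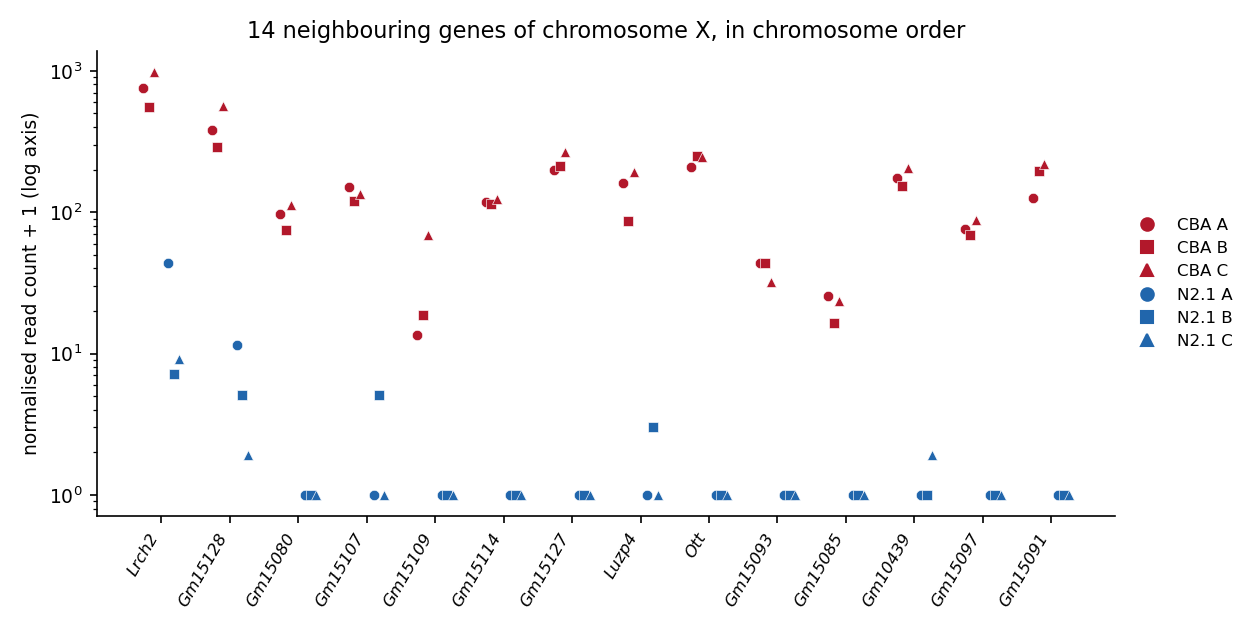
Normalised read count plus 1 on a log axis for 14 neighbouring tested genes of chromosome X in chromosome order, with the 3 CBA tumours of each gene in red on the left and the 3 N2.1 tumours in blue on the right. The CBA tumours lie above the N2.1 tumours at all 14 genes, and 9 genes have all 3 N2.1 tumours on the floor of the axis, which is 0 reads.

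Other genes that were silent or nearly so in N2.1 tumours were expressed in CBA tumours. By a limit chosen after the values were seen (3 reads or fewer over 1 group and a mean of at least 50 in the other), 25 genes were on in CBA and 41 were off. Of the 25, 24 were called, 11 lay on chromosome X and 13 were predicted genes. All 25 reached a count of at least 10 in Balb/c-2 A, and 14 stayed under 10 in all 3 F0 tumours. Zfp985, a zinc finger gene, had 476, 224 and 428 in CBA, against 0.946, 0 and 0 in N2.1 (adjusted p = 2.38e-05, flow-cell adjusted p = 0.0186). Mkrn3, an imprinted gene for a ubiquitin ligase that restrains puberty, had 143, 196 and 149 in CBA, against 1.89, 1.02 and 0 in N2.1 (adjusted p = 3.1e-05, flow-cell adjusted p = 0.0175). Lin28b, an RNA-binding protein of fetal cells that blocks let-7 microRNAs, had 89.3, 20.2 and 148 in CBA and no read in N2.1, at least 89.4-fold higher. It and Ibsp, a bone matrix protein at 127, 19 and 41.1 in CBA and 0 in N2.1, are named here after their values were seen.

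Further large rises were in genes of varied kinds. Tnnt2, cardiac troponin T, had 839.9, 765 and 1244 in CBA, against 72.9, 7.13 and 4.52 in N2.1 (5.96 ± 0.92, adjusted p = 0.00259, flow-cell adjusted p = 0.0349). Tbx20, a T-box transcription factor of the developing heart, had 1927, 747 and 1560.1 in CBA, against 15.1, 46.9 and 14.4 in N2.1 (5.84 ± 0.59, adjusted p = 0.000163, flow-cell adjusted p = 0.0843). Dnajc22, a cochaperone gene, had 207, 467 and 308 in CBA, against 3.79, 4.07 and 5.42 in N2.1 (adjusted p = 1.49e-05, flow-cell adjusted p = 0.00657). These genes did not overlap between groups, and Balb/c-2 A had 1034 of Tnnt2 and 293 of Dnajc22. Zfp936, at 146, 86.6 and 152 in CBA and 0, 0 and 1.81 in N2.1, and Lrrc75b, at 357, 58.1 and 635 in CBA and 2.84, 4.07 and 0.903 in N2.1, completed the largest rises with Nxf3 (flow-cell adjusted p = 0.0231 for Zfp936 and 0.155 for Lrrc75b). Nxf3, of a family of RNA export factors, had 211, 698 and 238 in CBA, against 8.52, 1.02 and 0 in N2.1. Its call had the highest p of the 15 (adjusted p = 0.00948, flow-cell adjusted p = 0.717), it was lost without N2.1 C (adjusted p = 0.0501), and Balb/c-2 A had only 8.27, against 381 in Balb/c-2 B and 420.3 in Balb/c-2 C on the flow cell of the CBA tumours.

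Rasgrf1, an exchange factor that switches Ras on and an imprinted gene, had 5.41, 4.74 and 1.25 in CBA, against 3016, 6172 and 2848 in N2.1 (−9.75 ± 0.46, adjusted p = 2.17e-06, flow-cell adjusted p = 0.00218). This was the largest fall by the rule for named genes. Balb/c-2 A, on the N2.1 flow cell, had 10.7. Of 17 tested genes that switch Ras on or off, Rasgrf1 was the single call, and the list had a median of −0.626. Braf itself stood at 1616, 758 and 1697 in CBA, against 733, 1627 and 935 in N2.1, with overlapping values (adjusted p = 0.793).

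Gfra2, a surface receptor for neurturin that signals with Ret, had 9.92, 10.7 and 13.7 in CBA, against 3064, 4091 and 2815 in N2.1 (−8.06 ± 0.58, adjusted p = 2.38e-05, flow-cell adjusted p = 0.00218). Every N2.1 tumour stood far above every CBA tumour. Rspo3, a secreted R-spondin that strengthens Wnt signals, had no read in any CBA tumour, against 344, 288 and 266 in N2.1. That is at least 275-fold lower against the floor of 3 reads over the CBA group (adjusted p = 1.06e-05, flow-cell adjusted p = 0.00218). Foxf2, a forkhead factor of mesenchyme, also had no read in CBA, against 224, 290.3 and 213 in N2.1, at least 221-fold lower (adjusted p = 2.45e-05, flow-cell adjusted p = 0.02). F0 tumours had 306, 284 and 266 of Foxf2 but only 5.55, 3.82 and 3.85 of Rspo3. Both were thus off in CBA and on in N2.1, but differed in F0. Ppfia4, a liprin that organises synapses, had 2.71, 0 and 8.72 in CBA, against 815, 972 and 1014 in N2.1 (adjusted p = 3.1e-05, flow-cell adjusted p = 0.0241). Nrk, a kinase of the placenta, had no read in CBA, against 58.7, 326 and 97.5 in N2.1. Htr1b, a serotonin receptor, had 3.61, 0 and 0 in CBA, against 181, 187 and 149.9 in N2.1 (adjusted p = 0.000136, flow-cell adjusted p = 0.00992). For these 3 genes the CBA tumours were at or near 0 and the groups did not overlap. The adhesion gene Sdk1, the ephrin receptor Epha7 and the sodium pump regulator Fxyd6 completed the group, with log2 changes of −7.40, −6.71 and −6.66, and none of these 3 was called with the flow cell as a covariate (adjusted p = 0.125, 0.111 and 0.063). Of the 41 genes off in CBA, 23 were called, 1 lay on chromosome X, and 28 reached at least 10 in Balb/c-2 A. They included muscle genes such as Myh1 and Myh4, whose reads came from N2.1 A almost alone, at 573 for Myh1 and 667 for Myh4 and at most 2.04 in the other 2 N2.1 tumours.

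Col7a1, the collagen of the fibrils that anchor skin, had 11243, 12579 and 17677 in CBA, against 371, 697 and 551 in N2.1 (4.70 ± 0.51, adjusted p = 0.000293, flow-cell adjusted p = 0.0027). Postn, periostin, had 19864, 19261 and 61374 in CBA, against 3385, 3196 and 3169 in N2.1 (3.14 ± 0.51, adjusted p = 0.00332, flow-cell adjusted p = 0.149). Both Col7a1 and Postn were thus several times higher in each CBA tumour. F0 tumours, on the N2.1 flow cell, had 36549, 75365 and 24076 of Postn. Acta2, the smooth muscle actin of pericytes and activated fibroblasts, had 5908, 17385 and 8688 in CBA, against 3063, 2348 and 2284 in N2.1 (adjusted p = 0.022, flow-cell adjusted p = 0.433), and the call was lost in 5 of 6 fits that left out 1 tumour (adjusted p up to 0.0872). All 3 were higher in every CBA tumour, with CBA C highest for Postn and CBA B highest for Acta2. On the lower side stood Pi16, a marker of resting fibroblasts, at 81.2, 168 and 66 in CBA, against 2633, 1652 and 4043 in N2.1 (−4.74 ± 0.54, adjusted p = 0.000363, flow-cell adjusted p = 0.148). Dcn, the proteoglycan decorin, had 4984, 5295 and 2106 in CBA, against 44534, 10566 and 24845 in N2.1 (adjusted p = 0.0245, flow-cell adjusted p = 0.415), a call lost in 4 of the 6 fits (adjusted p up to 0.106). Of 25 tested fibroblast and interstitial matrix genes, 2 rose and 4 fell (Pi16, Dcn, Dpt and Thbs2), beside 2.09% and 5.06% of all genes tested. The list had a median of −0.187. Leaving out 1 tumour left 1 to 2 rises and 1 to 3 falls. The main fibrillar collagens were not called, with Col1a1 at 40705, 76132 and 83196 in CBA, against 114536, 77796 and 84406 in N2.1, and Col3a1 at 91808, 71993 and 181998 in CBA, against 110506, 113312 and 110887 in N2.1.

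In the basement membrane, Col4a6, an α chain of type IV collagen on chromosome X, fell to 1.8, 0 and 2.49 in CBA, against 237, 1122 and 232 in N2.1 (−7.53 ± 0.74, adjusted p = 0.000145, flow-cell adjusted p = 0.0459). Balb/c-2 A, B and C had no read of it. Lama4, a laminin chain of vessels, fell to 624, 1288 and 789 in CBA, against 4054, 5909 and 3664 in N2.1 (−2.37 ± 0.30, adjusted p = 0.000713, flow-cell adjusted p = 0.0726). These were the 2 falls among 21 tested basement membrane and crosslinking genes, beside 5.06% of all genes tested that fell. The list had a median of −0.624.

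Further rises reached a mean of 5000 in CBA. Crabp2, which carries retinoic acid to its nuclear receptor, had 4851, 14989.5 and 3587 in CBA, against 1819.8, 566 and 817 in N2.1 (2.76 ± 0.60, adjusted p = 0.0176), and was not called without N2.1 B or without N2.1 C (adjusted p up to 0.0735). Hist1h1c, a linker histone, had 7028, 5077 and 11929 in CBA, against 1592, 1724 and 2039 in N2.1 (adjusted p = 0.0108), and was not called without CBA C (adjusted p = 0.0525). Pdgfc, a growth factor for mesenchymal cells, had 6138, 2552 and 8101 in CBA, against 1127, 1936 and 1588 in N2.1 (adjusted p = 0.0175), and was not called in 4 of the 6 fits (adjusted p up to 0.0764). With the flow cell as a covariate none of the 3 was called (adjusted p = 0.254, 0.135 and 0.35).

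Cholesterol synthesis rose in CBA tumours, with 10 of 22 tested genes called higher and none lower. The pathway builds cholesterol from acetyl-CoA through mevalonate, isoprenoids and lanosterol, and the factor Srebf2 turns its genes on together when cells sense too little sterol. The list had a median log2 change of 1.02, against −0.079 over all genes tested, and 17 of the 22 were higher in every CBA tumour than in any N2.1 tumour. By comparison, 2.09% of all genes tested were called higher and 13.1% were higher in every CBA tumour. Hmgcs1, the entry enzyme, had 4282, 4229 and 3687 in CBA, against 1019, 1014 and 1048 in N2.1 (1.98 ± 0.29, adjusted p = 0.00169, flow-cell adjusted p = 0.02). Its promoter is shown because it holds a match to the sterol response motif, TCACNCCAC searched on both strands, in capitals. The 250 bases are from RefSeq (GRCm38.p6), at chr13:119690101-119690350 on the plus strand.
Hmgcs1: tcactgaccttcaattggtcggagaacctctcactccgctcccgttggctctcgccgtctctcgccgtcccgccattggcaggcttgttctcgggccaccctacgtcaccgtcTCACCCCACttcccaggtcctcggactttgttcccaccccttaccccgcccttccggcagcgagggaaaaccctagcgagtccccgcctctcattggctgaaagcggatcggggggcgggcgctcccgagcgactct
The match starts 137 bases before the RefSeq start. The motif was found in 346 of 32851 promoters of this length (1.05%), and in 1 of the 15 cholesterol genes that had a promoter in the table. It is a match of letters, and binding was not measured.

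Several later steps rose too, while Mvk, Pmvk and Mvd, the mevalonate steps between, were not called. Idi1, which makes the active isoprenoid unit, had 1603, 1705 and 1432 in CBA, against 330.3, 394 and 433 in N2.1 (2.04 ± 0.22, adjusted p = 0.000269, flow-cell adjusted p = 0.0175). Fdps, farnesyl diphosphate synthase, had 88.4, 160.1 and 83.4 in CBA, against 14.2, 16.3 and 15.4 in N2.1 (adjusted p = 0.00143, flow-cell adjusted p = 0.036), but it shares exon bases on the same strand with the predicted gene Gm43738, so its count is uncertain. Of the later enzymes, Cyp51, which removes a methyl group from lanosterol, had 3146, 4936 and 2251 in CBA, against 424, 687 and 657 in N2.1 (2.50 ± 0.33, adjusted p = 0.00099, flow-cell adjusted p = 0.051). Every one of these values in CBA lay above every value in N2.1. Msmo1 and Sc5d also rose, with log2 changes of 1.78 ± 0.29 and 1.43 ± 0.24.

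Regulators of the pathway rose as well. Srebf2 had 12717, 12887 and 11135 in CBA, against 4533, 8103 and 5767 in N2.1 (1.03 ± 0.27, adjusted p = 0.0375, flow-cell adjusted p = 0.254, 0.0812 without CBA B), and Insig1, which holds Srebf2 back, had 2272, 1823 and 1780.5 in CBA, against 538, 1036 and 918 in N2.1 (1.28 ± 0.33, adjusted p = 0.038, flow-cell adjusted p = 0.115, 0.067 without CBA B). Both were higher in every CBA tumour than in any N2.1 tumour. Ebp was the single member with a negative difference (−0.25 ± 0.38, adjusted p = 0.768). Leaving out 1 tumour left 8 to 10 calls, and edgeR gave 12. With the flow cell as a covariate 3 were called, Hmgcs1, Idi1 and Fdps. F0 tumours, which were on the flow cell of the N2.1 tumours, had 6007, 5146 and 3744 of Hmgcs1 and 4619.7, 4268 and 3939 of Cyp51, and Balb/c-2 A had 6024 of Hmgcs1 and 4982 of Cyp51.

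**Figure D4:**
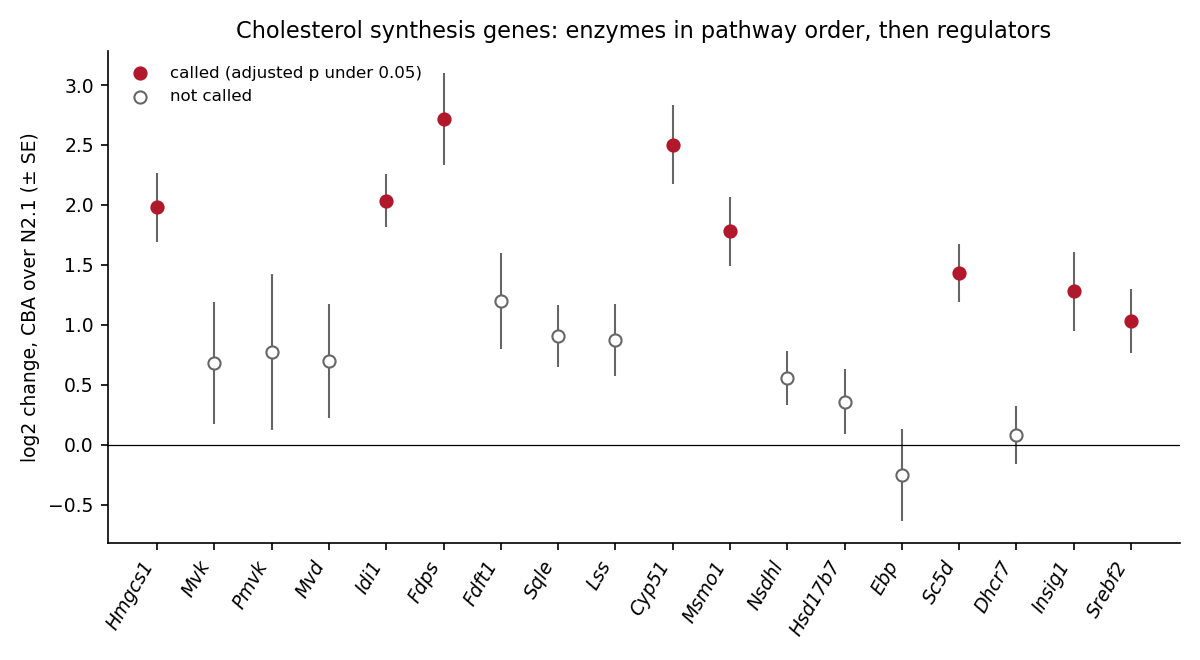
Log2 change of CBA over N2.1 tumours with its standard error for 18 of the 22 tested cholesterol genes, with the enzymes in the order of the pathway on the left and regulators on the right. Filled red points are the 8 called genes shown, open points the 10 that were not called, and Ebp alone lies under the line at 0.

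Genes of fat cells and of lipid uptake fell. Of 15 tested adipocyte and lipid uptake genes, 6 fell and none rose, with a median log2 change of −5.012, and 14 were lower in every CBA tumour than in any N2.1 tumour. Over all genes tested, 5.06% were called lower and 20.6% were lower in every CBA tumour. The summed normalised counts of the list were 13289, 8716 and 9470.2 in CBA, against 21891, 61647 and 57924 in N2.1. Lpl, the lipase that frees fatty acids from lipoproteins, had 492, 206 and 250.3 in CBA, against 5960.1, 6323 and 6979 in N2.1 (−4.44 ± 0.50, adjusted p = 0.000335, flow-cell adjusted p = 0.144). Car3, a carbonic anhydrase of fat and muscle, had 20.7, 3.56 and 3.73 in CBA, against 572, 4230.3 and 4372 in N2.1 (−8.14 ± 1.42, adjusted p = 0.00535, flow-cell adjusted p = 0.451). Adipoq, the hormone adiponectin made by fat cells, had 4.51, 0 and 0 in CBA, against 54.9, 492 and 613 in N2.1 (adjusted p = 0.0399, flow-cell adjusted p = 0.766), a call lost in each of the 6 fits without 1 tumour (adjusted p = 0.0535 to 0.144). N2.1 A was the lowest N2.1 tumour for all 3 genes, by far for Car3 and Adipoq but only slightly for Lpl. Pparg, the regulator of fat cell formation, and Pnpla2, a triglyceride lipase, fell as well, with log2 changes of −2.62 ± 0.59 and −0.88 ± 0.21. Leaving out 1 tumour left 2 to 5 calls, with 5 without N2.1 A and 2 without any of the others, and no member was called with the flow cell as a covariate. Balb/c-2 A had 2426 of Adipoq and 13031 of Car3, against 9.33 and 388 in Balb/c-2 B, so tumours of that passage also differed widely in both genes. Clec3b, tetranectin, which is in none of the lists, had 5.41, 0 and 11.2 in CBA, against 371, 462 and 1079 in N2.1 (adjusted p = 0.00355, flow-cell adjusted p = 0.414), and was also highest in Balb/c-2 A, at 3315.

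Mast cell genes were lower in CBA tumours. These are proteases and receptors of tissue cells that release histamine when immunoglobulin E binds them. Of 13 tested mast cell and basophil markers, 9 fell and none rose (median −3.096), beside 5.06% of all genes tested that fell. The summed counts were 8809.5, 4414 and 8355 in CBA, against 37969, 56962 and 51761 in N2.1. Tpsab1, a tryptase, had 2054, 446 and 1706 in CBA, against 14190.5, 20800.3 and 17336 in N2.1 (−3.89 ± 1.03, adjusted p = 0.0433, flow-cell adjusted p = 0.416). Fcer1a, the high-affinity receptor for immunoglobulin E, had 57.7, 8.3 and 36.1 in CBA, against 401, 488 and 541 in N2.1 (−4.12 ± 1.02, adjusted p = 0.0323, flow-cell adjusted p = 0.412). CBA B was the lowest tumour for both, and the groups did not overlap. Tpsb2, Cma1, Cpa3, Mcpt4, Ms4a2, Hdc and Kit made up the other calls, and the proteases among them are close copies whose reads may be shared. The count changed with each tumour left out: 4 calls were left without CBA A and none without any other single tumour, edgeR gave none, and none was called with the flow cell as a covariate. F0 tumours had 36.6, 10.5 and 211 of Tpsab1.

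Other myeloid genes fell in part. Of 12 tested neutrophil markers, 3 fell and none rose (median −2.5), beside 5.06% of all genes tested that fell. Cxcr2, the chemokine receptor that guides neutrophils, had 1.8, 1.19 and 1.25 in CBA, against 309, 39.7 and 293 in N2.1 (−6.01 ± 1.07, adjusted p = 0.00591, flow-cell adjusted p = 0.322). Csf3r, the receptor of the growth factor G-CSF, had 565, 531 and 562 in CBA, against 1860.5, 2133 and 2013 in N2.1 (−1.85 ± 0.37, adjusted p = 0.0121, flow-cell adjusted p = 0.163), and was not called without N2.1 C (adjusted p = 0.051). Lcn2, lipocalin 2, which binds bacterial iron carriers and is made by neutrophils and by epithelium, had 1293, 1021 and 1905 in CBA, against 25937, 6627 and 18414 in N2.1 (−3.43 ± 0.80, adjusted p = 0.0249, flow-cell adjusted p = 0.674), a call lost in 5 of the 6 fits (adjusted p up to 0.101). The granule genes Ngp, Ltf and Camp, which mark immature neutrophils, were at or near 0 in CBA and did not pass 35.0 in N2.1. The neutrophil calls ranged from 1 without N2.1 C to 6 without N2.1 B.

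Of 25 macrophage and monocyte markers, 4 fell and none rose (median −0.979), beside 5.06% of all genes tested that fell. Csf1r, the growth factor receptor that macrophages depend on, had 4539.6, 6986 and 6036 in CBA, against 10701, 16216 and 13037 in N2.1 (−1.19 ± 0.26, adjusted p = 0.0195, flow-cell adjusted p = 0.323, up to 0.0833 without 1 tumour). Cd163, a haemoglobin scavenger receptor, had 235, 328 and 174 in CBA, against 956, 657 and 1254 in N2.1 (−1.95 ± 0.41, adjusted p = 0.0148, flow-cell adjusted p = 0.393, up to 0.0738 without 1 tumour). Lyz2 and Ms4a7 were the other calls, and Ms4a7 alone kept its call in all 6 fits without 1 tumour (adjusted p up to 0.0393). CBA B was high in some of these genes. C1qa, a subunit of the complement starter C1q made by macrophages, had 13191, 65453 and 13981 in CBA, against 49644, 36129 and 49161 in N2.1. Without CBA B, 8 macrophage markers were called in place of 4, and 1 to 2 without any other tumour.

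Complement genes, which tag cells for uptake or lysis, gave 4 falls and no rise among 19 (median −1.563), with 12 lower in every CBA tumour. The shares over all genes tested were 5.06% called lower and 20.6% lower in every CBA tumour. C1s1, a protease of C1, had 1779.9, 846 and 1723 in CBA, against 6187, 4425 and 6468 in N2.1 (−2.03 ± 0.34, adjusted p = 0.00403, flow-cell adjusted p = 0.324), and kept its call without each tumour (adjusted p up to 0.0258). C3, the central component, was not called, at 5764, 4480.2 and 3922 in CBA, against 26165, 31140.4 and 29873 in N2.1 (adjusted p = 0.204), although the groups did not overlap. C1ra, C2 and C5ar1 were the other calls, and each was lost in at least 4 of the 6 fits without 1 tumour (adjusted p up to 0.0878, 0.127 and 0.1). The count was 6 without CBA B and 1 to 2 without any other tumour.

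Vessel genes fell too, with 7 of 22 endothelial and pericyte markers called lower and none higher (median −1.33). Of all genes tested, 5.06% were called lower. Kdr, the main receptor of VEGF, had 222, 227 and 171 in CBA, against 793, 626 and 685 in N2.1 (−1.76 ± 0.34, adjusted p = 0.00888, flow-cell adjusted p = 0.417). Tek, the receptor of angiopoietins, had 29.8, 10.7 and 22.4 in CBA, against 113, 88.6 and 155 in N2.1 (−2.52 ± 0.42, adjusted p = 0.00388, flow-cell adjusted p = 0.293). Rgs5, a marker of pericytes, had 299, 307 and 289 in CBA, against 1033, 853 and 905 in N2.1 (−1.63 ± 0.29, adjusted p = 0.0064, flow-cell adjusted p = 0.39). These 3 kept their calls without each tumour, whereas the list gave 3 to 6 calls, and Pecam1, Cdh5, Tie1 and Robo4 made up the rest. Eng and Vwf were not called, with Vwf at 356, 296 and 342 in CBA, against 294, 393 and 322 in N2.1. None of the 22 was called with the flow cell as a covariate. Among 15 dendritic cell markers 2 fell, Xcr1, the receptor of cross-presenting cells, at 110.1, 71.2 and 95.9 in CBA, against 266, 996 and 639 in N2.1 (adjusted p = 0.0173, flow-cell adjusted p = 0.493), and Wdfy4, at 263, 502 and 279 in CBA, against 991, 2169.7 and 1201 in N2.1 (adjusted p = 0.0423, flow-cell adjusted p = 0.861). Both calls were lost in at least 4 of the 6 fits without 1 tumour (adjusted p up to 0.0749 and 0.153).

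**Figure D5:**
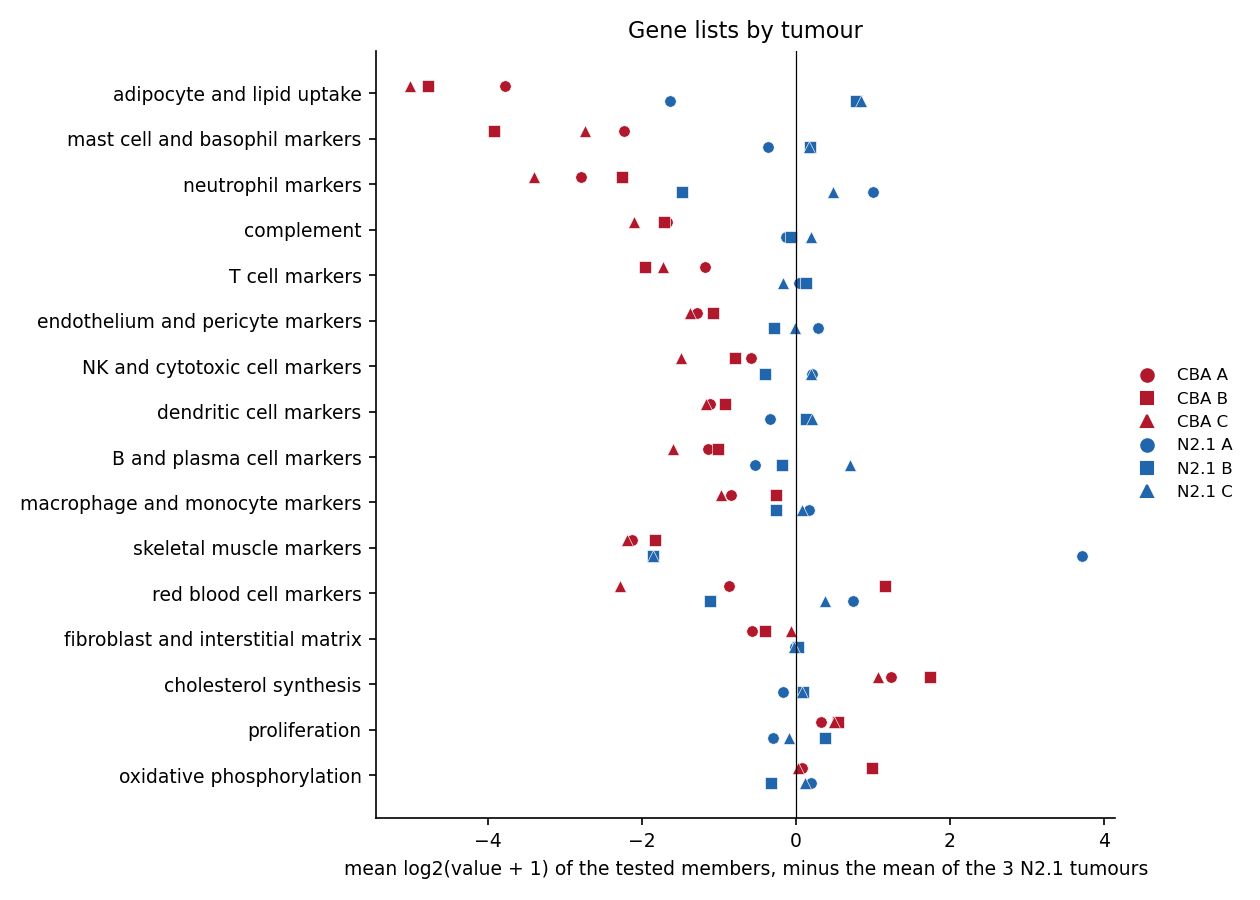
Mean log2(value + 1) of the tested members of 16 gene lists in each tumour, minus the mean of the 3 N2.1 tumours (horizontal), with CBA tumours in red above and N2.1 tumours in blue below on each row. Adipocyte, mast cell, complement, T cell and endothelial lists lie lower in all 3 CBA tumours, cholesterol synthesis lies higher, and the skeletal muscle list is high in N2.1 A alone.

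No T cell, natural killer cell or B cell marker was called with limma, out of 23, 18 and 16 tested. At an unadjusted p under 0.05, 7, 3 and 2 were lower and none higher, where 3777 of all 17491 genes tested reached that limit in either direction. DESeq2 called 3, 1 and 2 lower, edgeR none, and limma fitted to the 6 tumours alone 16, 6 and 2 lower. The T cell list had a median log2 change of −1.556, with 21 of 23 lower in every CBA tumour than in any N2.1 tumour (20.6% of all genes tested). With the flow cell as a covariate the medians were 1.194 for T cells and 5.641 for B cells, of the opposite sign, and −0.335 for natural killer cells. In that fit 3 B cell markers were called higher and no T cell or natural killer cell marker was called. Cd8a, the coreceptor of cytotoxic T cells, had 428, 160.1 and 203 in CBA, against 2010.1, 2311 and 1198 in N2.1 (−2.88 ± 1.07, adjusted p = 0.14). Cd3e, a chain of the T cell receptor complex, had 381, 241 and 202 in CBA, against 1181, 1186 and 843 in N2.1 (−1.99 ± 1.03, adjusted p = 0.293). The groups were thus apart for both, but the standard errors, which also carry the spread of the Balb/c-2 and F0 tumours, were large. Foxp3, the factor of regulatory T cells, overlapped, at 50.5, 26.1 and 56 in CBA, against 14.2, 92.7 and 56 in N2.1. Gzmb, a killing protease, had 3303, 2862 and 1596 in CBA, against 8829.5, 4822 and 6930.5 in N2.1 (adjusted p = 0.303).

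The main class I genes of antigen presentation were abundant in both groups and were not called. The class I heavy chain H2-K1 had 182088, 239238 and 150805 in CBA, against 166833, 110044 and 143194 in N2.1 (log2 difference 0.44 ± 0.54, 95% interval −0.73 to 1.61, adjusted p = 0.705). H2-D1 had 165898, 215700.3 and 126863 in CBA, against 226916, 148802 and 198482 in N2.1 (95% interval −1.21 to 0.84), and B2m, the shared light chain, 255965, 229932 and 209501 in CBA, against 246916, 160222 and 237777 in N2.1 (95% interval −0.79 to 1.05). Values of the groups overlapped for all 3. H2 genes differ in sequence between strains and were counted on the C57BL/6 reference mm10, and the part of that in their counts was not tested. The class I list gave 1 call among 27, H2-Q2, at 1.8, 4.74 and 0 in CBA, against 168, 35.7 and 105 in N2.1 (adjusted p = 0.0165, flow-cell adjusted p = 0.622), a call lost in 3 of the 6 fits without 1 tumour (adjusted p up to 0.0718). DESeq2 called 2 of the 27 lower, limma on the 6 tumours alone 4 lower, and none was called with the flow cell as a covariate. No class II gene was called among 13 with limma (1 lower at an unadjusted p under 0.05) or edgeR, against 1 lower with DESeq2, 3 lower with limma on the 6 tumours alone and 1 higher with the flow cell as a covariate. The class II median was −0.671, and it turned to 0.363 with the flow-cell covariate. Cd274, which codes for the checkpoint ligand PD-L1, had 7786, 5799 and 4821 in CBA, against 9992, 12494 and 10521 in N2.1, without overlap and without a call (−0.86 ± 0.82, adjusted p = 0.605).

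Interferon-induced GTPases, which attack vacuoles of pathogens, had a median log2 change of −0.825, and 13 of 18 were lower in every CBA tumour. By comparison 20.6% of all genes tested were lower in this way. The single call was Gbp2b, at 117, 242 and 162 in CBA, against 7938, 10534 and 8962 in N2.1 (−5.76 ± 0.99, adjusted p = 0.00475, flow-cell adjusted p = 0.136). Gbp2b is known to differ between mouse strains and is a close copy of Gbp2, which had 56193, 68283 and 39488 in CBA, against 146984, 125594 and 119969 in N2.1 (adjusted p = 0.335). F0 tumours had 77.7, 1.91 and 64.6 of Gbp2b. Limma on the 6 tumours alone called 5 of the 18 lower, and with the flow cell as a covariate none was called and the median was −1.96. None of 39 interferon response effectors was called by limma (2 lower at an unadjusted p under 0.05) or edgeR, against 1 lower with DESeq2, and their median was −0.218. In interferon signalling 1 of 19 fell, the feedback inhibitor Socs3, at 4009, 5429 and 4362 in CBA, against 12778, 8807 and 9504 in N2.1 (−1.16 ± 0.23, adjusted p = 0.0114, flow-cell adjusted p = 0.297, up to 0.0566 without 1 tumour). Among nucleic acid sensors Mavs, the adaptor of the RNA sensors, fell, with a log2 change of −0.84 ± 0.21 (17 tested), and it lost its call in each of the 6 fits without 1 tumour (adjusted p up to 0.131).

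Of 25 checkpoint and suppression genes, Tgfb2, a suppressive growth factor, rose to 1540.0, 828 and 2536 in CBA, against 145, 381 and 221 in N2.1 (2.68 ± 0.57, adjusted p = 0.0169, flow-cell adjusted p = 0.116, up to 0.0764 without 1 tumour). Vsir, the checkpoint VISTA, fell to 2079.5, 3038 and 1734 in CBA, against 7572, 7759.9 and 7017 in N2.1 (−1.74 ± 0.27, adjusted p = 0.0024, flow-cell adjusted p = 0.297, up to 0.0147 without 1 tumour). The suppressive cytokine Il10 fell to 34.3, 21.3 and 34.9 in CBA, against 207, 128 and 182 in N2.1 (−2.48 ± 0.52, adjusted p = 0.0156, flow-cell adjusted p = 0.373, up to 0.0669 without 1 tumour). The groups did not overlap for any of the 3, and the remaining 22 were not called. Among 25 chemokines Cxcl14 fell, to 1585, 1246 and 520.5 in CBA, against 2925, 5025 and 6053 in N2.1 (−2.14 ± 0.38, adjusted p = 0.00624, flow-cell adjusted p = 0.341).

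Imprinted genes, of which 1 parental copy is silenced by DNA methylation, gave 6 falls and 1 rise among 29 tested (median −1.045). Of all genes tested, 5.06% fell and 2.09% rose. The fall of Dcn was also counted in the fibroblast list, and that of Rasgrf1 among the genes that switch Ras on or off. Beside Rasgrf1 and Dcn, Grb10, an adaptor that restrains insulin signalling, fell to 106, 85.4 and 47.3 in CBA, against 628, 330.0 and 473 in N2.1 (−2.60 ± 0.39, adjusted p = 0.0022, flow-cell adjusted p = 0.189). F0 tumours had 7458, 16548 and 6908, so the N2.1 level was already low beside them. Plagl1, a zinc finger growth regulator, fell to 6.32, 15.4 and 7.47 in CBA, against 48.3, 64.2 and 62.3 in N2.1 (adjusted p = 0.0174, flow-cell adjusted p = 0.036). The noncoding RNAs Meg3 and Rian fell to 18, 29.6 and 34.9 and 86.6, 66.4 and 37.4 in CBA, against 121, 91.7 and 103 and 515, 196 and 381 in N2.1 (adjusted p = 0.0316 and 0.0306, flow-cell adjusted p = 0.412 and 0.388). Ppp1r9a, which binds actin and protein phosphatase, rose to 550.3, 106 and 695 in CBA, against 34.1, 86.6 and 40.6 in N2.1 (adjusted p = 0.0306, flow-cell adjusted p = 0.446, up to 0.127 without 1 tumour). The groups did not overlap for any of these genes. Leaving out 1 tumour left 2 to 4 falls. Mkrn3, the imprinted gene described above, was not in this list and rose. The genes that write or erase DNA methylation were little called: of 14, Tdg, a glycosylase that removes oxidised methylcytosine, rose to 2049.7, 1892 and 1998 in CBA, against 912, 1269 and 1231 in N2.1 (0.81 ± 0.20, adjusted p = 0.0299, flow-cell adjusted p = 0.611), and lost its call in 5 of the 6 fits without 1 tumour (adjusted p up to 0.13). In repeat silencing Morc1 was the single call among 27, and among 24 Hox genes Hoxc4 was the single call, at 159.7, 123 and 131 in CBA, against 10.4, 49.9 and 40.6 in N2.1 (adjusted p = 0.0347, flow-cell adjusted p = 0.729, up to 0.107 without 1 tumour).

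The state of the melanoma cells was compared through marker lists. Egfr, a growth factor receptor of the dedifferentiated state, fell to 61.3, 56.9 and 44.8 in CBA, against 313, 419 and 507 in N2.1 (−2.89 ± 0.32, adjusted p = 0.000293, flow-cell adjusted p = 0.0861, up to 0.00303 without 1 tumour). Ror2 and Tgfbi also fell, but Ror2 lost its call in each of the 6 fits without 1 tumour (adjusted p up to 0.137) and Tgfbi in 4 of them (up to 0.0963), and edgeR called neither (adjusted p = 0.0653 and 0.0547). The other 24 of 27 dedifferentiation genes were not called (median −0.481). Kit, the receptor of stem cell factor on melanocytes and on mast cells, fell to 262, 88.9 and 210.4 in CBA, against 489, 1636 and 815 in N2.1 (−2.35 ± 0.64, adjusted p = 0.0478, flow-cell adjusted p = 0.494), the single call among 15 melanocyte genes, and lost its call in each of the 6 fits without 1 tumour (adjusted p up to 0.172). It moved with the mast cell markers given above, and their part in it was not tested. Sox10, a factor of melanocytes and Schwann cells, was variable, at 74, 178 and 9.96 in CBA, against 11.4, 14.3 and 4.52 in N2.1 (adjusted p = 0.27). Pmaip1, a p53 target that triggers cell death, fell to 81.2, 33.2 and 58.5 in CBA, against 1122, 979.9 and 1044 in N2.1 (−4.25 ± 0.48, adjusted p = 0.000335, flow-cell adjusted p = 0.105), and was the single call among 24 p53 targets. Cdkn2a, reported as lost in this line, had 72.2, 94.9 and 109.6 in CBA, against 74.8, 99.8 and 115 in N2.1, without a difference beyond the spread (adjusted p = 0.95).

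Proliferation genes were mostly higher but none of 31 was called by limma (5 higher at an unadjusted p under 0.05), edgeR or DESeq2. Their median was 0.545, with 26 positive differences, and 10 were higher in every CBA tumour, as were 13.1% of all genes tested. With the flow cell as a covariate the median was 0.1. Ube2c, which drives exit from mitosis, had 6673, 11514 and 6763 in CBA, against 3490.1, 4440.2 and 4521 in N2.1 (0.96 ± 0.49, adjusted p = 0.286). Mki67 overlapped, at 5341, 5162 and 6986 in CBA, against 3597, 9449.8 and 3742 in N2.1, with N2.1 B the highest of the 6. Oxidative phosphorylation genes had a median of 0.349, which became 0.081 without CBA B, and none of 30 was called by limma (2 higher at an unadjusted p under 0.05) or edgeR, against 1 higher with DESeq2. Among 26 hypoxia and glycolysis genes Pfkfb4 was the single call, a fall of −1.17 ± 0.29 that was lost in each of the 6 fits without 1 tumour (adjusted p up to 0.123). Among 21 genes of MAPK output none was called by limma (2 higher and 4 lower at an unadjusted p under 0.05) or edgeR, against 1 lower with DESeq2, 2 lower with limma on the 6 tumours alone and 1 lower with the flow cell as a covariate. Ccnd1, cyclin D1, had 24925, 10546 and 20290.1 in CBA, against 27957, 55636 and 29539 in N2.1 (adjusted p = 0.288).

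Further falls reached a mean of 5000 in N2.1. Nppb, the natriuretic peptide BNP, had 737, 534 and 227 in CBA, against 11753, 4232 and 6298 in N2.1 (−3.92 ± 0.73, adjusted p = 0.00794), and Cpxm1, a carboxypeptidase-like secreted protein, 464, 231 and 232 in CBA, against 5680.0, 2688 and 6991 in N2.1 (−4.02 ± 0.58, adjusted p = 0.00164). Both kept their calls without each tumour (adjusted p up to 0.0422 and 0.0113) and lost them with the flow cell as a covariate (adjusted p = 0.0979 and 0.209). Lor, loricrin of the outer skin, rose to 17.1, 107 and 68.5 in CBA and had no read in N2.1, while the basal skin keratins Krt5 and Krt14 did not pass 1.89 in any of the 6 tumours. Skeletal muscle markers gave no call among 19 with limma (1 lower at an unadjusted p under 0.05) or edgeR, against 8 lower with DESeq2, with summed counts of 1411, 4224 and 1443 in CBA, against 14754, 1328 and 1415 in N2.1. The lists of replication licensing, endoplasmic reticulum stress, red blood cells and sex-linked genes gave no call among 25, 22, 5 and 6 tested with limma (1, 3, 0 and 0 at an unadjusted p under 0.05) or edgeR, and DESeq2 called 1, 1, 0 and 0 higher. Of 41 tested genes known to differ between strains, 4 fell and none rose (Gbp2b, H2-Q2, Cd244a and Nlrp1b), beside 5.06% of all genes tested that fell. In the fits without 1 tumour this list had 1 to 4 falls, with 1 rise without N2.1 B. The single call among 13 Schwann and nerve markers was Mbp, myelin basic protein, at 180.4, 157 and 188 in CBA, against 379, 511 and 469 in N2.1 (adjusted p = 0.0393, flow-cell adjusted p = 0.754, edgeR adjusted p = 0.0551), a call lost in each of the 6 fits without 1 tumour (adjusted p up to 0.132). Over all 93 called genes named by the rule, 52 kept their calls without each of the 6 tumours, and 23 kept them with the flow cell as a covariate.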

How the data were processed

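RNA-seq of 12 whole tumours was used. The build mm10 and the tools HISAT2 2.0.5, StringTie 1.3.3b and featureCounts 1.5.0-p3 are named, per the submitters' processing notes, without a role for each. How the counts were scaled, and whether strand was used, is not named in the sources used here. The authors deposited 1 table of normalised read counts, a signal per gene and tumour. Dividing each tumour's values by the value of 1 read gave whole reads for 100% of values above 0 within 0.1 of a read. This held over gene and repeat rows together, with 34721735 to 52355808 reads over both in the CBA and N2.1 tumours. Of the 34436 gene IDs, 34364 matched a GENCODE M21 symbol. Beyond this step and the read totals the 684965 repeat rows were not used, and the table held no mitochondrial gene.

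The filter kept genes that reached 10 in 3 or more of the 12 tumours. Group means of the 4 passages were fitted to log2(value + 1) with limma 3.58.1 in R 4.3.3 (trend and robust moderation), and p values were adjusted by Benjamini-Hochberg over the 17491 genes, with calls under 0.05. Fold changes are on the log2(value + 1) scale, which understates changes of low genes. The spread is shared with the Balb/c-2 and F0 tumours. For single values, the smallest p of an exact permutation test with 3 tumours against 3 is 0.1, so none was run. On the recovered reads, edgeR 4.0.16 with its quasi-likelihood test called 1006 genes and DESeq2 1.42.0 called 2335. Intervals and floors (95%, 3 reads) cover counting error only.

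Genes were named by rule: the 15 largest rises and falls among called genes without overlap whose higher group averaged 100 or more, the 8 largest where it averaged 5000 or more, up to 4 called members of each of 42 gene lists or the most abundant where none was called, and 10 set genes. Predicted genes and pseudogenes were left out, and other genes named were chosen after their values were seen. The members and lists were chosen with earlier results of these data known, so lists are described by counts and medians with no test. Of the 115 genes named by the rule, 22 share exon bases with another gene, 7 of them on the same strand, and reads of such pairs may not be told apart. Some members of the lists are counted but not reported here by name.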

Additional observations from a re-analysis of the deposited data

How the results depend on the processing

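Of 1250 called genes (365 higher and 885 lower in CBA tumours), the count of calls changed most with the flow cell as a covariate, which left 118 (63 higher and 55 lower). DESeq2 called 2335 (887 higher and 1448 lower), a fit without the Balb/c-2 tumours 2177 (682 and 1495), and a fit of the 12462 genes with a mean of at least 100 called 787 (232 and 555), with fewer genes tested. Quantile normalization called 551 higher and 670 lower, and edgeR 396 and 610, so the share of higher calls was 45.1% and 39.4%, against 29.2% in the reported fit. Leaving out 1 of the 6 tumours gave 545 to 1122 calls, 174 to 362 higher and 367 to 760 lower. The cause of these changes was not tested. Pseudocounts of 0.5 and 10, no filter on low values, only the 6 tumours, and no trend or robust moderation gave 1204, 1305, 996, 1798 and 1235 calls. Letters did not pair the tumours: deviations of CBA and N2.1 tumours with the same letter correlated at −0.177, −0.407 and −0.196, and the replicate block gave 1088 calls (309 higher and 779 lower). Of the 93 called genes named by the rule, 23 kept their calls with the flow cell as a covariate, 78 with edgeR, 85 after quantile normalization, 93 with DESeq2, 84 with the replicate block and 54 to 73 without 1 tumour, and none changed its direction in any of these fits. Of the 115 genes named by the rule, those that changed direction in a fit were called neither there nor in the reported fit. Among other list members, the flow-cell fit called 3 B cell markers and 1 class II gene higher. The medians of these 2 lists were negative in the reported fit. With the flow cell as a covariate the log2 change became 0.407 for Cd74, 1.74 for Trbc2, 1.976 for Ighm, −0.58 for Top2a, −0.144 for Mcm7, −0.041 for B2m, −0.798 for Braf, 0.994 for Cdkn2a and −1.863 for Xist. Over the 6 fits without 1 tumour it ranged from −0.904 to 0.974 for Hba-a1 (negative without CBA B, and −0.409 without N2.1 B), −0.057 to 0.2 for Mcm7 (negative without CBA B), −1.401 to 0.52 for Ddx3y (positive without CBA B), −0.378 to 0.005 for H2-D1 (positive without CBA C), −0.069 to 0.243 for B2m (negative without N2.1 B) and −0.233 to 0.101 for Cdkn2a (0.072 without N2.1 C and 0.101 without CBA A). Cdkn2a also became 0.027 with edgeR and 0.267 after quantile normalization, and Ddx3y 0.085 with edgeR and 0.051 with DESeq2. With 3 tumours a group and no flow cell shared, the passage and the flow cell cannot be told apart beyond the term set by the Balb/c-2 tumours.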

Other observations

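Called genes also lay side by side elsewhere in the genome. Besides the stretch on chromosome X described above, 3 stretches of 4 neighbouring tested genes were called in 1 direction, and all were picked out after the values were seen. On chromosome 12 (chr12:19288562-19433081), the predicted genes Gm5953, Gm46339, Gm9255 and Gm5784 were higher in CBA tumours, with log2 changes of 3.72 to 6.02. On chromosome 17 (chr17:17843323-17971677), Has1, an enzyme that makes hyaluronan, and Fpr1, Fpr2 and Fpr3, receptors by which phagocytes sense bacterial peptides, were lower, with log2 changes of −4.16 to −2.65. Fpr2 lies within the coordinates of Fpr3, so reads of this pair may be shared. On chromosome X (chrX:135797594-136034946), Bhlhb9 and Gprasp2, of a family with armadillo-like repeats, and Arxes2 and Arxes1 were lower, with log2 changes of −5.7 to −3.55.

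Windows of 50 neighbouring genes, in steps of 25, were taken over the 11663 genes with a mean of at least 100 in both groups. The median log2 change of these genes was −0.041, and adjacent windows shared genes. Of the 434 windows, the one with the highest median lay on chromosome 13 (chr13:104142149-120052194). Its median was 0.623, 9 of its genes were called higher and none lower, and it holds Hmgcs1 of the cholesterol list. Measured in each CBA tumour against the mean of N2.1, the median was 0.68, 0.39 and 0.60 in CBA A, B and C. Against the same mean, Balb/c-2 A, B and C stood at 0.24, 0.60 and 0.71, and F0 A, B and C at 0.48, 0.66 and 0.53. All Balb/c-2 and F0 tumours thus also lay above N2.1 in this window, so the difference is not particular to CBA. The median change of CBA over N2.1 in it was 0.737 after quantile normalization and 0.182 with the flow cell as a covariate. The window with the lowest median lay on chromosome 11 (chr11:118406289-120764419), at −0.403. Against the N2.1 mean, CBA A stood at −0.69 and CBA C at −0.61 in it, but CBA B at 0.06. Balb/c-2 B was low too, at −0.44, while the remaining Balb/c-2 and F0 tumours did not fall under −0.06. Both windows are the extremes of the 434 and carry no test.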
